A study of Homo sapiens with 26 samples.

Results

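SART1 mRNA was lowered in 786-O cells with either of 2 small interfering RNAs (siRNAs), numbered 4 and 6, and the poly(A) RNA of the cells was sequenced. The comparison described here sets the 2 siRNA 4 libraries against the 2 siRNA 6 libraries, which are 4 of the 26 libraries of the series. Another 2 libraries, from cells given a non-targeting siRNA, show which of the siRNAs moved a gene. The table holds 11823 genes with a mean of at least 10 normalized reads per library, and all of them were compared. 786-O cells derive from a human renal tumour of the clear cell type and have no working VHL, so that the hypoxia factor HIF-2 stays active under normal oxygen. All 6 libraries came from this 1 line, grown in ambient oxygen. Every culture was transfected with a Qiagen siRNA in DharmaFECT 1, replated after 24 h and collected at 48 h. The controls received the AllStars negative siRNA, which means that the lipid and an siRNA duplex are shared by all groups. Whether both libraries of each group stem from different transfections is not stated, so p-values measure the spread between these libraries, which may be technical.

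SART1 is a protein of the U4/U6.U5 tri-snRNP, the particle that joins the assembling spliceosome, and it is found in nuclear speckles, the bodies where splicing factors gather. An siRNA is loaded into an Argonaute protein, which cuts the mRNA that pairs with the whole guide strand. Like a microRNA, it can also lower other mRNAs whose 3' untranslated region (3' UTR) pairs only with a short stretch at the guide's 5' end, the seed. For this reason knockdown studies use more than 1 siRNA per target, and a gene that responds to both is usually read apart from a gene that responds to 1 of them.

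SART1 itself had 3224 and 3424 normalized reads in the control libraries, 1122 and 1091 with siRNA 4, and 888 and 891 with siRNA 6. Both siRNA groups lay far below the controls, and the siRNA 4 libraries lay above the siRNA 6 libraries. The remaining SART1 mRNA was 33.3% of control with siRNA 4 and 26.8% with siRNA 6. The difference between the siRNAs was 0.31 on the log2 scale (SE 0.05, adjusted p = 1.43e-05). This difference in remaining SART1 accompanied every result below, and its part in them was not tested.

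A word of 8 bases, ACTAACAA, was found more often in mRNAs that were lower with siRNA 4, and sites that hold it or 1 of its 2 overlapping 7-base words are printed here because the results on words of the 3' UTR turn on them. They come from GENCODE 29 transcripts on GRCh38, matched by gene symbol. Each line gives the RNA strand from 5' to 3', with the word in capitals. The words were picked by the difference between the siRNAs, so their excess among the lower genes is a description and no test. The first site is in the coding sequence of SART1, where the word starts at base 367 counted from the first base of the start codon and the printed stretch spans an exon junction. The others are in 3' UTRs, of which the last belongs to a gene that was higher with siRNA 4.
SART1, coding sequence: gcatcgaggagACTAACAAactccgggcaa
RAB14, chr9:121180703-121180732, minus strand: gaaggaatcgaACTAACAAtacattctgtg
NT5E, chr6:85494259-85494288, plus strand: aatgaaattttACTAACAAttttaaaccat
POLA1, chrX:24996852-24996881, plus strand: ggtaagattatACTAACAAaatgtttcccc
EPAS1, chr2:46384980-46385009, plus strand: caactgtccatACTAACAAgtttggtgcat
CMTM3, chr16:66613005-66613033, plus strand: tcttctgtttcACTAACAggaacaaagac
COL4A1, chr13:110150206-110150234, minus strand: gaatttgcgtaACTAACAcaccctgcttc
FTL, chr19:48966826-48966854, plus strand: tcttaactatcCTAACAAgccttggacca
ITGB8, chr7:20414378-20414407, plus strand: accctaacttaACTAACAAgaatgggtagg

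Between the siRNAs, 2260 genes were higher with siRNA 4 (19.1% of the genes tested) and 2293 were lower (19.4%), at an adjusted p under 0.05 in limma on log2(normalized reads + 1). Most of these differences were small. The median size among the 4553 called genes was 0.26 on the log2 scale, 35 genes were more than 2-fold higher with siRNA 4, and 58 were more than 2-fold lower. DESeq2 on the recovered reads called 1312 genes higher and 1637 lower.

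The control libraries told which siRNA had moved a gene. Both comparisons with control use the same 2 control libraries, so their values are given side by side only. With siRNA 4, 3487 genes were higher than in control (29.5%) and 3337 lower (28.2%). With siRNA 6, 3841 were higher (32.5%) and 3601 lower (30.5%). In all, 57.7% of genes were called with siRNA 4 and 62.9% with siRNA 6, and 38.5% between the siRNAs. Of the 4553 genes called between the siRNAs, 1761 were called against control with both siRNAs in 1 direction and differed in how far they moved. Of those, 1122 lay further from control with siRNA 6, and 639 lay further with siRNA 4. Another 948 were called against control with siRNA 4 and not with siRNA 6, and 1266 with siRNA 6 and not with siRNA 4. The remaining genes were 286 called in opposite directions and 292 called with neither. The last 2 counts depended on single libraries: without control library 1 they were 165 and 573, without control library 2 they were 178 and 555, and without siRNA 6 library 2 the genes called with neither were 156. Without siRNA 6 library 2 the genes called with both in 1 direction were 1116. The genes called with neither were 189 without siRNA 4 library 2 and likewise 189 without siRNA 6 library 1.

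MUC13, a transmembrane mucin of epithelial surfaces, showed the largest difference among the leading genes chosen by the naming rule. It had 32.5 and 25.3 normalized reads in control, 396 and 386 with siRNA 4, and 23.0 and 27.6 with siRNA 6. The siRNA 4 libraries stood alone, and the siRNA 6 libraries overlapped the controls. The fold was 15.4 over siRNA 6, a log2 difference of 3.90 (SE 0.18, adjusted p = 4.32e-14). MUC13 was also among the genes tested with the siRNAs against FIBP and TMEM259, where it ran from -1.75 with FIBP siRNA 6 to 1.41 with FIBP siRNA 7 against their own controls, at low levels.

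MET, the receptor of hepatocyte growth factor, moved with siRNA 6 instead. Its control libraries had 17738 and 17370.4 normalized reads, those with siRNA 4 had 17373 and 17519, and those with siRNA 6 had 5453 and 5630.2. The siRNA 4 libraries lay between the controls at 99.4% of control, while siRNA 6 left 31.6%. The difference between siRNAs was 1.65 (SE 0.03, adjusted p = 8.96e-22). The 8 siRNAs against the other targets moved MET between -0.24 and 0.21 only.
NPRL3, a subunit of the GATOR1 complex that restrains mTORC1, had a like order. It had 893 and 898 reads in control, 1039 and 1011 with siRNA 4, and 481 and 520.4 with siRNA 6. The siRNA 6 libraries were the low ones, with a difference of 1.03 (SE 0.06, adjusted p = 2.13e-12). C12orf73 and GPR1 also lay below control with siRNA 6, with differences between the siRNAs of 1.24 and 0.97. Unlike MET and GPR1, NPRL3 and C12orf73 were also called above control with siRNA 4, by 0.19 (adjusted p = 0.00831) and 0.44 (adjusted p = 0.00339).

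CDKN1A, which encodes the cell cycle inhibitor p21, went opposite ways. It had 1045 and 1024 normalized reads in control, 2234 and 2291 with siRNA 4, and 809.9 and 895 with siRNA 6. Both siRNA 4 libraries lay above, and both siRNA 6 libraries below, the controls. The difference was 1.41 (SE 0.05, adjusted p = 9.57e-16). GDF15, a stress-induced secreted cytokine, had 30.6 and 53.6 reads in control, 287 and 256 with siRNA 4, and 67.1 and 79.4 with siRNA 6. It rose with both siRNAs and further with siRNA 4, by 1.88 (SE 0.19, adjusted p = 3.84e-08).
SCG5, a secretory chaperone of prohormone convertase, and DUSP5, a nuclear phosphatase of ERK, likewise rose with both. SCG5 had 480.1 and 452 reads in control, 1463 and 1611 with siRNA 4, and 658 and 647 with siRNA 6. DUSP5 had 200.1 and 208 reads in control, 722 and 683 with siRNA 4, and 342 and 345 with siRNA 6. The siRNA 4 libraries were the highest for both genes, by 1.23 (SE 0.06) and 1.03 (SE 0.08).
TMEM158, a membrane protein first described in RAS-induced senescence, and SLC17A5, the lysosomal sialic acid exporter, rose with siRNA 4. TMEM158 had 366 and 344 reads in control, 743 and 693 with siRNA 4, and 347 and 358 with siRNA 6. SLC17A5 had 245 and 251, then 500.1 and 562, then 248 and 274. For both, the siRNA 6 libraries overlapped the controls or lay beside them, and the adjusted p against control with siRNA 6 was 0.92 and 0.473. IL6R, the interleukin 6 receptor, was the other leading gene of this kind, with a difference of 0.98 (SE 0.21).

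**Figure D1:**
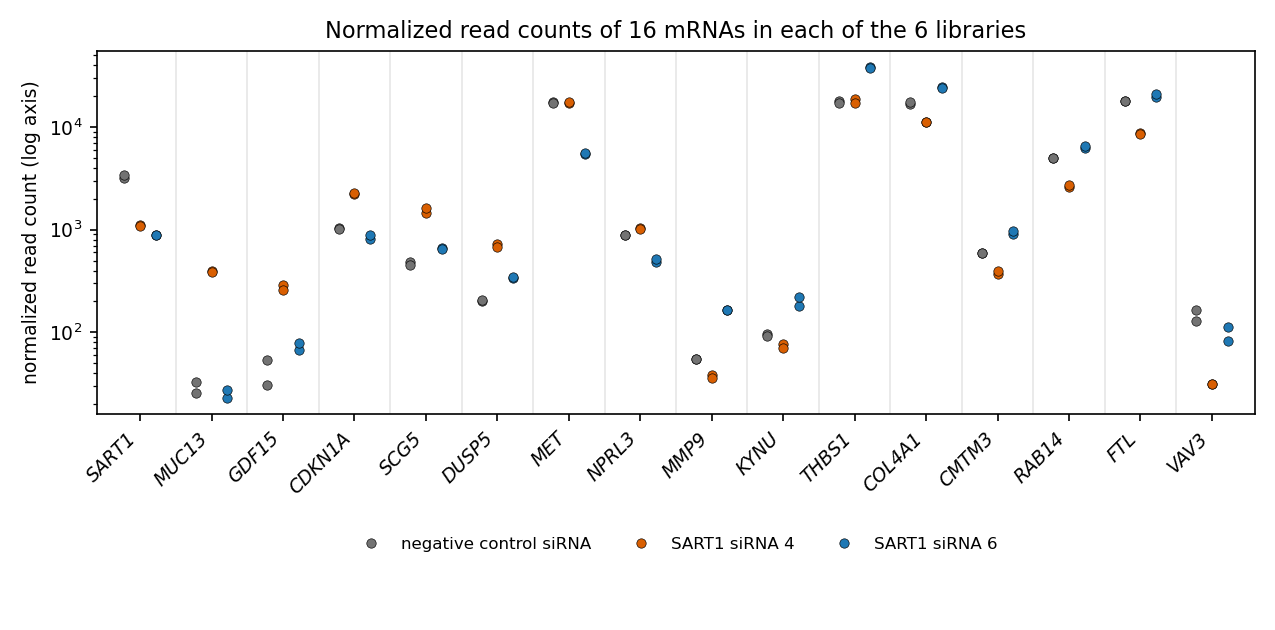
Normalized read counts (vertical log axis) of 16 mRNAs (horizontal axis) in the 2 control, 2 siRNA 4 and 2 siRNA 6 libraries; each point is 1 library. MUC13 was high with siRNA 4 alone (396 and 386), MET was low with siRNA 6 alone (5453 and 5630.2), and RAB14 and FTL were low with siRNA 4 alone.

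Among the genes higher with siRNA 6, MMP9, a gelatinase that cuts basement membrane collagen, led. It had 55.2 and 54.6 normalized reads in control, 38.5 and 35.6 with siRNA 4, and 164 and 166 with siRNA 6. It fell with siRNA 4 and rose with siRNA 6, and the siRNA 6 libraries were 4.45-fold above those of siRNA 4, a log2 difference of -2.12 (SE 0.17, adjusted p = 5.78e-10). With the siRNAs of the other targets it ran from -1.12 with SARNP siRNA 3 to 2.38 with DDX39A siRNA 4.
KYNU, the kynureninase of tryptophan breakdown, had 96.6 and 92.6 reads in control, 76.1 and 70.2 with siRNA 4, and 181 and 223 with siRNA 6. ANK3, the membrane scaffold ankyrin-G, had 48.3 and 45.8, then 40.4 and 48.5, then 138 and 127. In both cases the siRNA 6 libraries stood high, with differences of -1.45 (SE 0.14) and -1.56 (SE 0.18). KYNU was also called below control with siRNA 4, by -0.37 (adjusted p = 0.0315), and ANK3 was not (adjusted p = 0.7). EPPK1, the cytolinker epiplakin, likewise stood high with siRNA 6, with a difference of -1.42 (SE 0.19).

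A second group of these genes was low with siRNA 4. RAB14, a GTPase of endosome and Golgi traffic, had 5056 and 5027 normalized reads in control, 2583 and 2711 with siRNA 4, and 6266 and 6479 with siRNA 6. The siRNA 4 libraries were at 52.5% of control and the siRNA 6 libraries somewhat above it, a difference of -1.27 (SE 0.04, adjusted p = 5.56e-18). ARHGDIB followed the same order with 415 and 391, then 228 and 227, then 529 and 556 reads, and a difference of -1.25 (SE 0.08). CMTM3, a MARVEL-domain membrane protein, was at 64.7% of control with siRNA 4 and 159% with siRNA 6, with 591 and 593 reads in control, 368 and 398 with siRNA 4, and 911 and 974 with siRNA 6.
VAV3, a guanine nucleotide exchange factor, was lowered by both and more by siRNA 4. It had 129 and 166 reads in control, 31.0 and 31.6 with siRNA 4, and 81.5 and 113 with siRNA 6, a difference of -1.58 (SE 0.18, adjusted p = 2.69e-07). EFHB, CSF1R (the receptor of colony stimulating factor 1), SEMA5B (a semaphorin) and MYH13 (a muscle myosin heavy chain) also lay below control with siRNA 4. Their differences between the siRNAs were -1.54, -1.44, -1.35 and -1.27.

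With clone-named genes and pseudogenes left out, only 2 genes moved more than 2-fold with each siRNA while the 95% interval of the difference between the siRNAs stayed within 0.25 on the log2 scale. Genes with wide intervals cannot meet this rule however alike they are, so it does not count all genes that moved alike. PAQR4, a membrane protein of the progestin and adipoQ receptor family, had 1047 and 1113 normalized reads in control, 519.9 and 492 with siRNA 4, and 489 and 474 with siRNA 6. The siRNA libraries were close, with an interval from -0.06 to 0.21. C3orf52 had 589.6 and 667 reads in control, 1242 and 1328 with siRNA 4, and 1351 and 1299 with siRNA 6. Its siRNA libraries overlapped, with an interval from -0.17 to 0.08.

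**Figure D2:**
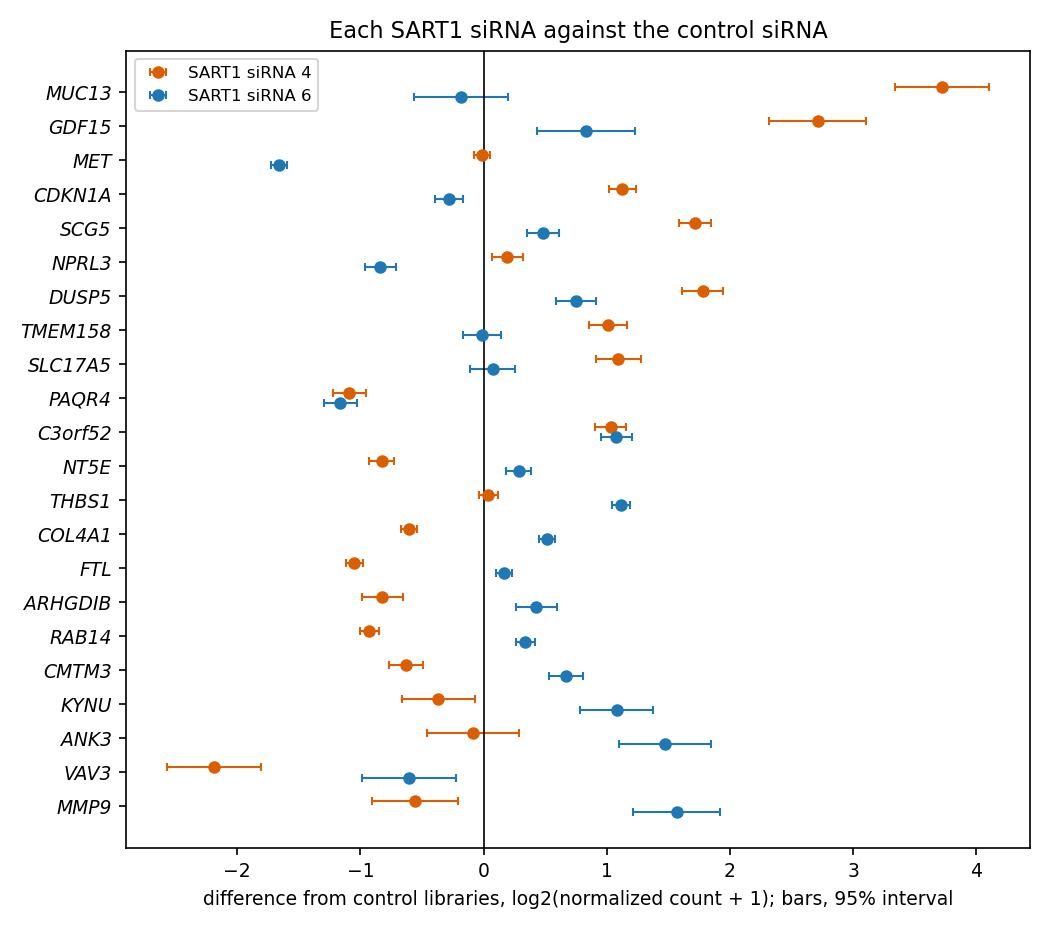
Difference of each SART1 siRNA from the control libraries (horizontal axis, log2 of normalized reads + 1) for 22 genes; points are means of 2 libraries per group and bars are 95% intervals of the fit. CDKN1A, MMP9, CMTM3 and COL4A1 lie on opposite sides of 0 with the 2 siRNAs, and PAQR4 and C3orf52 lie together.

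The p53 and ATF4 target lists were called higher with siRNA 4 more often than the 19.1% of all genes. The heat shock and NRF2 lists were not: 2 of 17 heat shock genes were higher and 5 lower, and 3 of 23 NRF2 oxidative stress genes were higher and 11 lower. Of 31 genes of the unfolded protein response, 7 (22.6%) were higher, a share near that of all genes, and 10 (32.3%) were lower. Of 24 measured targets of p53, the transcription factor of DNA damage and arrest, 14 were higher with siRNA 4 and 3 lower. Their median difference was 0.28, against 0.01 over all genes tested. Besides CDKN1A and GDF15, BBC3, the death inducer PUMA, differed by 0.70 (SE 0.11, adjusted p = 3.08e-05). Against control, 17 p53 targets were higher and 2 lower with siRNA 4, and 13 were higher and 6 lower with siRNA 6. The shares of all genes were 29.5% higher and 28.2% lower with siRNA 4, and 32.5% higher and 30.5% lower with siRNA 6.
Of 24 measured targets of ATF4, the factor of the integrated stress response, 15 were higher with siRNA 4 and 2 lower, with a median of 0.15. CTH, an enzyme of cysteine synthesis, differed by 0.91 (SE 0.16, adjusted p = 8.93e-05). CHAC1, a glutathione-degrading enzyme, differed by 0.64 (SE 0.19), and its adjusted p of 0.0119 rose to 0.188 without siRNA 4 library 2 and to 0.0641 without siRNA 6 library 1. The count of 15 became 9 without siRNA 4 library 2 and 8 by DESeq2.
The aminoacyl-tRNA synthetases, enzymes that charge tRNAs, had 10 of 19 higher with siRNA 4 and 1 lower. GARS, the glycine enzyme, differed by 0.26 and EPRS, the glutamate and proline enzyme, by 0.23.

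Genes of vesicle traffic between the endoplasmic reticulum and the Golgi had 21 of 38 members higher with siRNA 4 and 2 lower, with a median of 0.15. Among all genes, 19.1% were higher and 19.4% lower. Both siRNAs raised most of this list against control: 34 members were higher with siRNA 4 and 33 with siRNA 6. The shares of all genes were 29.5% and 32.5%. KDELR3, a receptor that returns proteins to the endoplasmic reticulum, had 1492 and 1545 normalized reads in control, 2509 and 2652 with siRNA 4, and 1560.4 and 1631 with siRNA 6. It stood high with siRNA 4 by 0.69 (SE 0.05, adjusted p = 2.59e-11). GOLGA2, a Golgi matrix protein, differed by 0.41 (SE 0.04). TMED10, a cargo receptor of the same vesicles, was lower with siRNA 4 by -0.42 (SE 0.04).

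Most measured genes of the contractile and matrix lists were called higher with siRNA 6 than with siRNA 4. Of 33 measured contractile genes and targets of the transcription factor SRF, 25 were lower with siRNA 4 than with siRNA 6 and 0 were higher, beside 19.4% and 19.1% of all genes. Their median difference was -0.30, and -0.17 after quantile normalization. Against control, 24 of the 33 were higher with siRNA 6 and 4 lower, and 10 were higher and 9 lower with siRNA 4. The shares of all genes were 32.5% higher and 30.5% lower with siRNA 6, and 29.5% higher and 28.2% lower with siRNA 4. TAGLN, the actin-binding protein transgelin, had 124 and 115 reads in control, 112 and 93.9 with siRNA 4, and 218 and 195 with siRNA 6. It was high with siRNA 6 alone, at 172% of control against 86.0% with siRNA 4 (adjusted p = 1.71e-06 between the siRNAs). CAV2, a caveolar coat protein, was low with siRNA 4 alone, with 5785 and 6058 reads in control, 3829 and 4055 with siRNA 4, and 6042 and 6025 with siRNA 6.

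The extracellular matrix list had 25 of 36 measured members lower with siRNA 4 and 4 higher, with a median of -0.30. Beside this list, the integrins and the proteases, 19.4% of all genes were lower and 19.1% higher. THBS1, the matricellular protein thrombospondin, had 17828 and 17136 reads in control, 18803 and 17180.0 with siRNA 4, and 38321 and 37612 with siRNA 6. Only the siRNA 6 libraries left the control range by far, and the difference was -1.08 (SE 0.04, adjusted p = 6.07e-17). COL4A1, a chain of basement membrane collagen, had 16633 and 17469.9 reads in control, 11139 and 11309 with siRNA 4, and 24607 and 24214 with siRNA 6. It went down with siRNA 4 and up with siRNA 6, with a difference of -1.12 (SE 0.03, adjusted p = 2.54e-18). TNC, the glycoprotein tenascin C, followed that order at -0.92 (SE 0.04).
The integrins, receptors of the matrix, had 7 of 12 lower with siRNA 4 and 1 higher. ITGA6, a laminin receptor chain, differed by -0.85 (SE 0.04), and ITGB8, another integrin chain, was higher by 0.35 (SE 0.07), with 84.3% of control left by siRNA 4 and 66.0% by siRNA 6. Of 21 proteases and inhibitors of the matrix, 11 were lower with siRNA 4 and 3 higher. PLAU, the urokinase plasminogen activator, had 1531 and 1568 reads in control, 2123 and 2276 with siRNA 4, and 4315 and 4147 with siRNA 6. It rose with both siRNAs and further with siRNA 6.

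The lists of signalling genes mostly had more members lower than higher with siRNA 4, beside 19.4% lower and 19.1% higher among all genes. The EGF receptor family and its ligands had 8 of 13 lower and 1 higher, the TGF-beta list 13 of 29 lower and 1 higher, the insulin-like growth factor list 8 of 14 lower and 0 higher, and the FGF list 2 of 11 in each direction. Of 24 NF-kB targets and cytokines, 11 were lower with siRNA 4 and 2 higher. Both siRNAs nevertheless raised most of them against control (20 with siRNA 4, 22 with siRNA 6), beside 29.5% and 32.5% of all genes. The count of 11 was 7 without siRNA 4 library 1. VCAM1, an adhesion molecule for leukocytes, had 1016 and 1068 normalized reads in control, 1263 and 1272 with siRNA 4, and 2486 and 2668 with siRNA 6. ICAM1, another adhesion molecule, followed it, with a difference of -0.60 (SE 0.05). IL6, the cytokine interleukin 6, had the reverse order, with 179 and 184 reads in control, 522 and 655 with siRNA 4, and 370.0 and 393 with siRNA 6.
Output genes of the ERK pathway had 8 of 23 higher with siRNA 4 and 9 lower. PHLDA1, an immediate response gene, was higher with siRNA 4 by 0.82 (SE 0.05). HBEGF, a ligand of the EGF receptor, was lower by -1.04 (SE 0.05), while EREG, a ligand of the same receptor and the 1 member of its list called higher, differed by 0.69 (SE 0.04). HBEGF had 842 and 795 reads in control, 1071 and 1097 with siRNA 4, and 2149 and 2304 with siRNA 6, and EREG had 5402 and 5456, then 9006 and 9968, then 5943 and 5821.

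Of 29 interferon response genes, 15 were lower with siRNA 4 and 0 higher, with a median of -0.25, beside 19.4% and 19.1% of all genes called lower and higher. DESeq2 called 9. IFIT1, an RNA-binding antiviral protein, had 372 and 361 reads in control, 159.8 and 150.3 with siRNA 4, and 226 and 265 with siRNA 6. It fell with both and further with siRNA 4, by -0.66 (SE 0.10, adjusted p = 1.5e-05). Against control, 16 of these genes were lower and 2 higher with siRNA 4, and 12 were lower and 4 higher with siRNA 6. Over all genes, 28.2% were lower and 29.5% higher with siRNA 4, and 30.5% were lower and 32.5% higher with siRNA 6.
Cholesterol synthesis genes had 16 of 23 lower with siRNA 4 and 2 higher, with a median of -0.26, and DESeq2 called 10 lower. HMGCS1, the synthase that feeds the mevalonate pathway, had 2768 and 2795 reads in control, 3381 and 3867 with siRNA 4, and 5156 and 5406 with siRNA 6. Of the clock genes, 10 of 18 were lower with siRNA 4 and 1 higher. CIART, a repressor of the clock, had 116 and 101 reads in control, 98.7 and 99.9 with siRNA 4, and 238 and 235 with siRNA 6.

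The 75 measured cytosolic ribosomal protein genes had 57 lower with siRNA 4 and 1 higher, beside 19.4% and 19.1% of all genes. The amounts were small, with a median of -0.14. After quantile normalization the median was -0.05 and 24 were lower. Against control, 54 were higher and 1 lower with siRNA 6, and 11 were higher and 12 lower with siRNA 4. The shares of all genes were 32.5% higher and 30.5% lower with siRNA 6, and 29.5% higher and 28.2% lower with siRNA 4. RPS27A, a ribosomal protein made as a fusion with ubiquitin, had the largest difference of the list, -0.33 (SE 0.04, adjusted p = 1.8e-07).

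Among genes of the structures SART1 is found in, those of the tri-snRNP were called at shares near the background, and those of speckles were lower with siRNA 4 at a higher share. Of 32 tri-snRNP protein genes, 4 were higher with siRNA 4 and 5 lower, beside 19.1% and 19.4% of all genes. Against control, 26 of the 32 were higher with each siRNA, beside 29.5% of all genes with siRNA 4 and 32.5% with siRNA 6. PRPF3, a U4/U6 protein, had 2822 and 2718 reads in control, 4641 and 4635 with siRNA 4, and 5642 and 5522 with siRNA 6. It rose with both and further with siRNA 6. PRPF38A, a factor of spliceosome activation, was above control with siRNA 4 and below it with siRNA 6, a difference of 0.33 (SE 0.04). Of 45 speckle and SR protein genes, 5 were higher with siRNA 4 and 14 (31.1%) lower. SRPK2, a kinase of SR proteins, was lower by -0.62 (SE 0.04), and NEAT1, the RNA scaffold of paraspeckles, was lowered by both siRNAs to 47.5% and 34.9% of control.
HIF and hypoxia targets had 5 of 40 higher with siRNA 4 and 17 lower, with a median of -0.08, and of -0.03 after quantile normalization. ANGPTL4, a secreted lipase inhibitor, was higher with siRNA 4 by 1.35 (SE 0.27, adjusted p = 0.000278). EPAS1, which encodes HIF-2 alpha, had 2119.8 and 2156 reads in control, 1654 and 1600.0 with siRNA 4, and 2308 and 2198 with siRNA 6, a difference of -0.47 (SE 0.04, adjusted p = 9.99e-09). Its 3' UTR holds the word of 8 bases printed above.

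**Figure D3:**
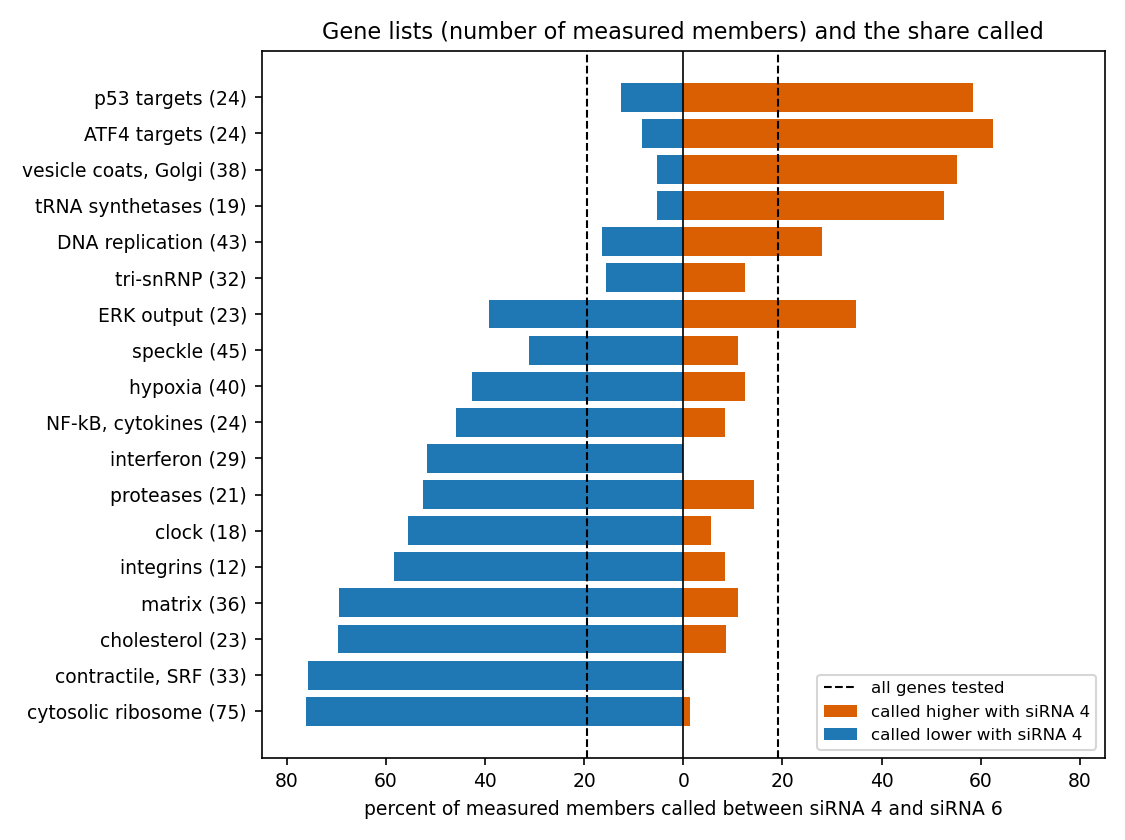
Share of the measured members of 18 gene lists called between the siRNAs (horizontal axis, percent; right, higher with siRNA 4; left, lower with siRNA 4), with the number of measured members in brackets and dashed lines at the 19.1% and 19.4% of all genes. The contractile, matrix and ribosomal lists lean to siRNA 6, and the p53, ATF4 and Golgi lists to siRNA 4.

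To see what the genes share beyond their expression, every word of 7 bases found in the 3' UTRs of at least 200 genes was ranked by the median difference between siRNA 4 and siRNA 6 of the genes that hold it. There were 13446 such words over 10940 genes with a 3' UTR in GENCODE 29. Since these values ranked the words, the result is a description with no test. The lowest word was ACTAACA, in 841 genes (7.69% of 3' UTRs) with a median of -0.11, and the next was CTAACAA, in 914 genes (8.35%) with a median of -0.10. The pair overlap by 6 bases, and the third word, TACTAAC, which overlaps ACTAACA as well, had a median of -0.06. The lowest 2 words held the first and the second rank in each pairing of equally numbered siRNA 4 and siRNA 6 libraries.

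The joined word ACTAACAA was in the 3' UTR of 277 genes, which is 2.53% of these genes. Their median was -0.17 between the siRNAs, against 0.02 for the 9543 genes with neither 7-base word. Against control the joined-word genes had a median of -0.18 with siRNA 4 and 0.04 with siRNA 6. In the ranking of siRNA 4 against control the 7-base words were less extreme, at rank 27 for ACTAACA and rank 96 for CTAACAA. The lowest word there was GGACCGG, with a median of -0.15 with siRNA 4 and -0.17 with siRNA 6, so that it was low with both. Of the 277, 131 (47.3%) were called lower with siRNA 4 and 23 (8.30%) higher, and of the 9543 genes without the words 17.8% were called lower and 21.0% higher. Genes with the joined word in the coding sequence had a median of -0.08, and those with it in the 5' UTR, of which there were 12, had a median of 0.03.
Longer 3' UTRs hold more words of any kind, so the genes were also split by 3' UTR length into 4 groups of about equal size. The joined-word genes had medians of -0.27, -0.34, -0.17 and -0.14 from the shortest to the longest group, with 9, 27, 60 and 181 genes, and the genes with neither word lay at 0.02 in all 4. The shortest group holds few joined-word genes. Since the words were ranked by this same difference, low medians of their holders partly follow from that choice. The part of 3' UTR length was not tested.

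**Figure D4:**
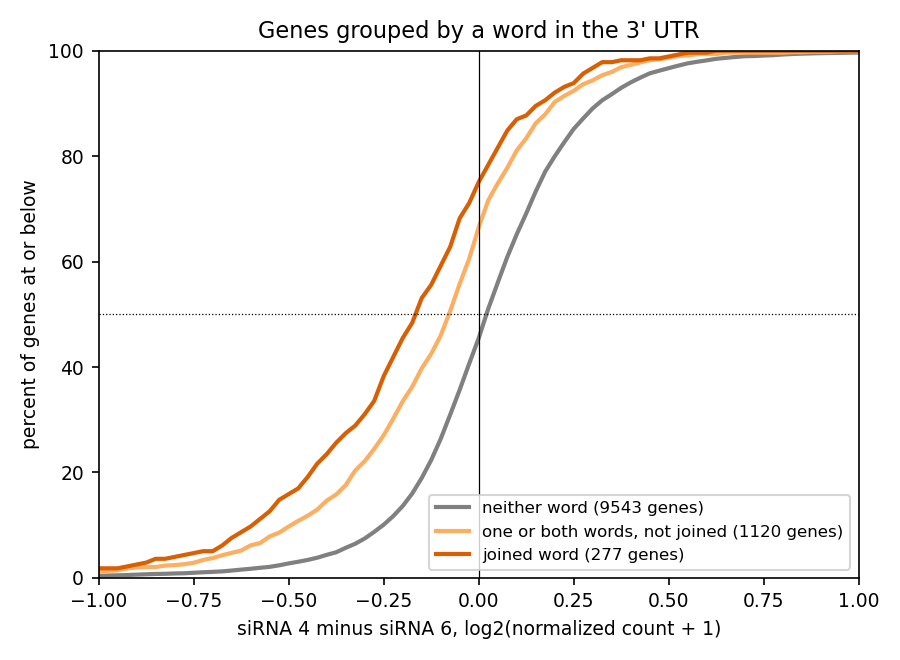
Percent of genes (vertical axis) at or below each difference between siRNA 4 and siRNA 6 (horizontal axis, log2), for genes with neither word, with 1 or both 7-base words apart from the joined word, and with the joined word in the 3' UTR. The joined-word curve of 277 genes lies to the left of the curve of the 9543 genes with neither word, with medians of -0.17 and 0.02. The words were ranked by these same differences.

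The words were ranked by the same differences that define the called genes. An excess of holders among the genes lower with siRNA 4 therefore follows from that choice, and the counts are descriptions. Among the genes called lower with siRNA 4 by more than 0.5, 145 of 374 (38.8%) held 1 of the 7-base words in the 3' UTR, against 1397 of all 10940 genes with a 3' UTR. Of the 12 leading genes lower with siRNA 4, 5 held one (ARHGDIB, CMTM3, CSF1R, KYNU and RAB14), and of the 12 leading genes higher with siRNA 4, 0 did. Holders were also found on the other side: 146 of 2149 genes called higher with siRNA 4 (6.79%) held 1 of the words. ITGB8, with the joined word printed above, was among them. FTL, the light chain of the iron store ferritin, had 18018 and 17992 reads in control, 8824 and 8574 with siRNA 4, and 19648 and 20802 with siRNA 6. It was low with siRNA 4 alone, at 48.3% of control. NT5E, a surface enzyme that makes adenosine, followed it with 2090.2 and 1942 reads in control, 1178 and 1094 with siRNA 4, and 2390.4 and 2520.3 with siRNA 6. POLA1, the catalytic subunit of DNA polymerase alpha, was at 50.7% of control with siRNA 4 and 88.5% with siRNA 6, with 1898 and 1970.5 reads in control, 977 and 985 with siRNA 4, and 1715 and 1707 with siRNA 6. A printed site marks that the letters are present, not that the mRNA is bound there.

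The lists were also counted without the genes that hold either word. Because the words were ranked by the same differences, a smaller share lower with siRNA 4 in this count is partly set by that choice. In that count, 23 of 31 contractile genes, 19 of 29 matrix genes, 11 of 25 interferon genes and 54 of 72 ribosomal genes were lower with siRNA 4. The share lower was 17.8% of the 9543 genes with a 3' UTR and neither word, and 19.4% of all genes tested. Other lists changed more. The insulin-like growth factor list went from 8 of 14 lower with a median of -0.27 to 3 of 9 with a median of -0.05, and the EGF receptor list from 8 of 13 lower to 4 of 9. The kidney tubule list went from 6 of 11 lower with a median of -0.17 to 4 of 9 with a median of -0.09. The siRNA sequences were not used here, so whether the words pair with the seed of siRNA 4 was not tested. For the genes lower with siRNA 6, no word of this kind led. The 10 highest words all held a CpG and at least 5 G or C letters of 7, with medians from 0.06 to 0.08. Genes in the quartile of transcripts with the highest GC content had a median of 0.04, and the GC content of the words and of their transcripts was not separated.

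The same gene groups were followed in the libraries of the 8 siRNAs against DDX39A, SARNP, FIBP and TMEM259, which share no control with the SART1 table. The median of joined-word genes minus the median of genes with neither word was -0.19 with SART1 siRNA 4 and 0.04 with SART1 siRNA 6, each against control. With the other 8 siRNAs it ran from -0.10 to 0.02. The lowest of these was FIBP siRNA 7, and the next lowest was -0.02. Of the 7 genes with a printed 3' UTR site that were lower with SART1 siRNA 4, those below control with FIBP siRNA 7 were RAB14 (-0.62), COL4A1 (-0.64), POLA1 (-0.47) and FTL (-0.36). The others were above it, with 0.28 for CMTM3, 0.64 for NT5E and 0.31 for EPAS1. The lowest FTL value among the 8 siRNAs was -0.69, with SARNP siRNA 9.

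**Figure D5:**
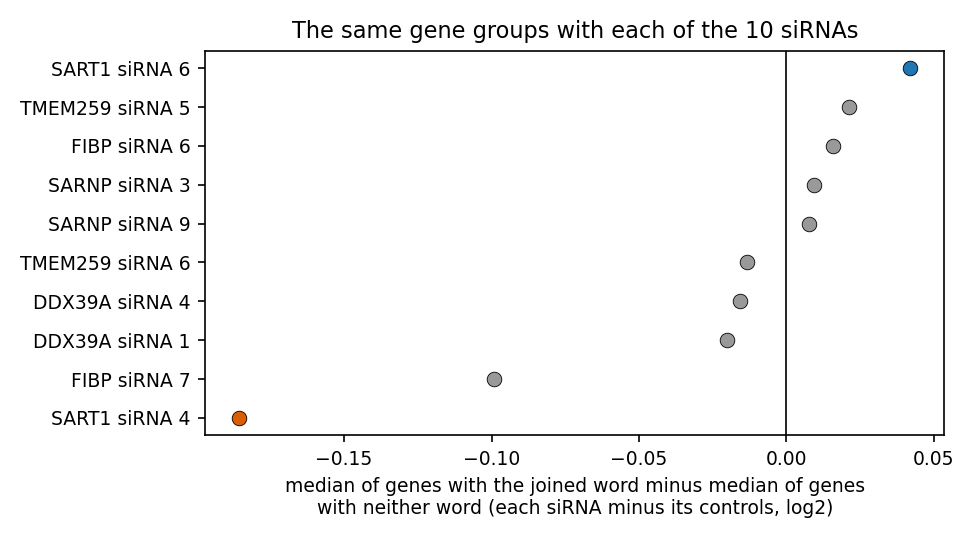
Median of the genes with the joined word minus the median of the genes with neither word (horizontal axis, log2 difference of each siRNA from its own controls), for the 10 siRNAs of the series (vertical axis); each point is 1 siRNA with 2 libraries. SART1 siRNA 4 lies at -0.19, FIBP siRNA 7 at -0.10, and the others between -0.02 and 0.04. The words were picked by the difference between the 2 SART1 siRNAs, so the gap between those 2 points follows from the choice.

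The libraries were alike in depth, with 21710821 to 26128173 reads assigned to genes. All 12 markers of renal carcinoma and epithelial cells were measured, with 1 higher (MET) and 8 lower with siRNA 4, beside 19.1% and 19.4% of all genes. Of 20 markers of blood, endothelial, fibroblast and nerve cells, 5 were measured (COL1A1, LUM, PDGFRB, SNAP25 and SYT1), and PTPRC of leukocytes and PECAM1 of endothelium had no row among the genes tested. Their summed normalized reads were 242.5 and 263 in control, 172 and 211 with siRNA 4, and 233 and 201 with siRNA 6. PDGFRB, a receptor of mesenchymal cells, was the only one of the 5 called, at -1.14 (SE 0.29, adjusted p = 0.00282, and 0.0553 without siRNA 6 library 1). In these bulk libraries of 1 line, fewer cells that express a gene and less of its RNA per cell cannot be told apart.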

How the data were processed

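Poly(A) RNA of 786-O cells was sequenced as directional paired reads of 42 bases, per the labels' protocols. The submitters' processing notes name STAR, Picard, HTSeq, DESeq2 and hg19; the gene annotation and the strand setting are not given in the sources used here. The authors deposited a normalized signal per gene, and its steps are those of a read count divided by 1 size factor per library. All values were whole multiples of that step (tolerance 0.0001 reads), so reads were recovered for the count tests; this recovery is a reading of the values, since no source states the size factors, and edgeR and DESeq2 serve as alternatives only. Rows that name no gene were left out: per library 6.67 to 7.03% of entries had no feature, 1.38 to 1.42% were ambiguous and 21.8 to 22.0% did not align uniquely.

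Differences were fitted with limma 3.58.1 (R 4.3.3; lmFit and eBayes with a mean trend, 1 mean per group over the 6 libraries) on log2(value + 1), which understates changes of low genes, with Benjamini-Hochberg adjustment over the 11823 genes with a table mean of at least 10 and a threshold of 0.05. The fit was tested on simulated data with 200 changed genes. Alternatives were a pseudocount of 5, no filter, a mean of at least 50, quantile and upper-quartile scaling, edgeR 4.0.16, DESeq2 1.42.0, the 4 siRNA libraries only, a replicate block and leaving out each library.

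Named genes were SART1, the 12 largest called differences in each direction with a mean of at least 50 and no overlap of libraries, up to 4 called members per list, up to 6 opposite genes and the genes alike with both siRNAs. Clone-named genes and pseudogenes were left out of the largest, opposite and alike genes. The comparison, the 47 gene lists and the naming rule were chosen with earlier results of these data known. Transcript sequences came from GENCODE 29 (GRCh38), 1 per gene, for 11564 genes (97.8%). Genes with near-identical copies, ribosomal protein genes among them, may have shared reads.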

Additional observations from a re-analysis of the deposited data

How the results depend on the processing

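The 2260 genes higher and 2293 lower with siRNA 4 became 1312 higher under DESeq2, and ran from 1625 to 2243 and from 1743 to 2268 when 1 library was left out. The share of higher calls was 44.5% under DESeq2, against 49.6%. Leaving out 1 library, calls against control ran from 3031 to 3443 higher and 2759 to 3329 lower with siRNA 4, and from 3394 to 3927 higher and 3045 to 3683 lower with siRNA 6. The genes called with siRNA 4 and not siRNA 6 ran from 711 to 950, with siRNA 6 and not siRNA 4 from 966 to 1364, with both in 1 direction from 1116 to 1489, opposite from 165 to 270, and with neither from 156 to 573. DESeq2 gave 927 genes called with both in 1 direction and 157 opposite. The cause of these changes was not tested. Of the lists, DESeq2 called 8 ATF4 targets higher, and 10 cholesterol and 9 interferon genes lower, and quantile normalization left 24 ribosomal protein genes lower. These list counts, and the word medians, were put through the same alternatives after the data had been seen. Without 1 library, the counts ran from 11 to 14 (p53 targets), 9 to 15 (ATF4), 16 to 23 (Golgi), 7 to 11 (tRNA synthetases), 22 to 25 (contractile), 21 to 25 (matrix), 41 to 58 (ribosomal), 12 to 16 (cholesterol), 11 to 14 (interferon), 7 to 13 (NF-kB), 10 to 11 (clock), 5 to 7 (integrins) and 15 to 18 (hypoxia). The joined-word median minus that of all genes was -0.18, and ran from -0.18 to -0.16. The SART1 difference ran from 0.29 to 0.33 without 1 library. Of the 62 other named genes, none changed direction where called and CHAC1 and PDGFRB alone lost the call in any of the 15 alternatives (60 of the 62 could be fitted at a mean of at least 50): CHAC1 under DESeq2 (adjusted p = 0.0884) and without siRNA 4 library 2 or siRNA 6 library 1, and PDGFRB in the last of these, while DESeq2 gave PDGFRB no adjusted p. The library numbers did not pair the samples: deviations from the group means correlated at -0.005, -0.008 and 0.039 between groups, and with the replicate block 2389 genes were higher and 2403 lower. Of the 15 alternatives, the setting with no filter could not differ, since all 11823 genes of the SART1 data passed the filter. The precision rests on 2 libraries per group, with 3 residual degrees of freedom. The SEs and p-values also draw on the spread of all genes, with 20.5 prior degrees of freedom.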
